A study of Mus musculus with 20 samples.

Results

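The genes described here are 8 transcription factor genes that set and maintain myeloid identity, namely Spi1, Cebpa, Cebpb, Maf, Klf2, Klf4, Bhlhe40 and Zeb2. They form a list of names, drawn up with earlier results of these data known, and were found by Entrez number among the 36528 gene models of the count files. All 8 were present and all 8 passed the filter on low counts. RNA-seq had been made from macrophages and monocytes sorted from MC38 tumours, which grow from a mouse colon carcinoma line transplanted into mice. Control tumours were compared with tumours given anti-PD-L1, an antibody that blocks a ligand of the inhibitory receptor PD-1, and RNA was taken 7 days after treatment began. Each of the 4 groups (macrophages and monocytes, each from control or from anti-PD-L1 tumours) held 5 libraries, 20 in all. The sources used here do not give the mouse strain, age or sex, what the control tumours received, or how the cells were gated. The labels do not tie libraries to animals, so the p-values reflect only how these samples vary, and that variation may be technical. Sample numbers are lower for each control library than for any treated one, so their order and the treatment cannot be told apart.

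PU.1, the product of Spi1, is an ETS family factor that opens myeloid enhancers and is required for the whole lineage. It works with the C/EBP factors: C/EBPα, from Cebpa, drives the step to granulocyte and monocyte progenitors, while C/EBPβ, from Cebpb, acts in emergency myelopoiesis and in the inflammatory genes of mature cells. Among the zinc finger factors, Klf4 promotes the differentiation and survival of monocytes, and Klf2 restrains inflammatory activation. Bhlhe40 is a basic helix-loop-helix repressor that limits Il10 transcription, Zeb2 helps to preserve the identity of tissue macrophages, and Maf, the gene of c-MAF, acts in the maturation of macrophages and in the transcription of Il10 and the C1q genes.

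The libraries held 30191509 to 36514133 counts each. Macrophage markers summed to between 22233 and 36651 CPM (a read count relative to the library's TMM-scaled total) in the macrophage libraries and to between 7221 and 10817 CPM in the monocyte libraries. Monocyte markers summed to between 374 and 825 CPM in macrophages and to between 5546 and 11949 CPM in monocytes, so on both lists each library fell on the side of its label. Ly6c2, a surface antigen of classical monocytes, averaged 5.42 CPM in control macrophages against 910.3 CPM in control monocytes, and C1qa, a complement chain of macrophages, averaged 3999 against 554 CPM. Markers of other cells were lower. Epithelial, endothelial, T and NK cell, B cell and dendritic cell lists summed to at most 110.2, 24.3, 29.6, 31.1 and 88.1 CPM in any library, and neutrophil markers to at most 582 CPM. Neutrophil markers moved with cell type, as 7 of 7 tested of a list of 9 were lower in macrophages in both treatments (edgeR, median log2 fold changes of -5.52 and -4.40), with sums of 50.7 to 125 CPM in macrophage and 195 to 582 CPM in monocyte libraries. Most of the macrophage sums came from 1 gene, Csf3r, which averaged 61.8 CPM in control and 96.4 CPM in treated macrophages. S100a8, a calcium-binding protein abundant in neutrophils and also made by monocytes, averaged 0.204 CPM in control macrophages and 35.7 CPM in control monocytes. Of the 9 neutrophil markers 2 were at 0 in all control macrophage libraries and 1 in all treated ones, and 0 in the monocyte groups. Fibroblast markers summed to more, with sums of 129 to 2849 CPM in control macrophages, 72.6 to 479 CPM in treated ones, 439.7 to 4449 CPM in control monocytes and 96.5 to 713 CPM in treated ones. The fibroblast sums are taken up with the treatment comparisons, which they move with.

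The related pairs Cebpa and Cebpb, and Klf2 and Klf4, are compared below as ratios within a library, and the DNA in front of these genes is shown because the members of each pair differed from each other in how far they moved between the cell types. Promoter windows were at hand for 5 of the 8 genes (Cebpa, Cebpb, Klf2, Klf4 and Zeb2), from RefSeq on GRCm38.p6. Each run below is the 250 bases before the gene's start, 5′ to 3′ on the gene's strand. Capitals mark letters that match, on either strand, a core motif bound by one of the 8 factors: ATTGC (core of a C/EBP site), GAGGAA (PU.1), CCACCC and CCGCCC (KLF), CACGTG (Bhlhe40), CAGGTG (Zeb2) or TGCTGA (core of a MAF site). Matches to CCGCCC may overlap one another. The windows lie at chr7:35119043-35119292 on the plus strand for Cebpa, chr2:167688665-167688914 on the plus strand for Cebpb, chr8:72318812-72319061 on the plus strand for Klf2 and chr4:55532476-55532725 on the minus strand for Klf4.
Cebpa: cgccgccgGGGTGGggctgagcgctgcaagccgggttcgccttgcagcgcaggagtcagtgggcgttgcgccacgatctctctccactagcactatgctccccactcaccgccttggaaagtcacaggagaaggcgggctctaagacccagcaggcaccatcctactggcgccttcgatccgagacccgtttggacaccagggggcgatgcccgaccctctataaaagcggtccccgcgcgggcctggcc
Cebpb: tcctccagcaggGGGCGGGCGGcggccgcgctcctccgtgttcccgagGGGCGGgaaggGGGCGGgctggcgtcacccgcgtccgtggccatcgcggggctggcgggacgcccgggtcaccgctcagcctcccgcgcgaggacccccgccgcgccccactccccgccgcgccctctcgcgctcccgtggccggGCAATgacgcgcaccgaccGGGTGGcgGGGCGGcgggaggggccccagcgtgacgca
Klf2: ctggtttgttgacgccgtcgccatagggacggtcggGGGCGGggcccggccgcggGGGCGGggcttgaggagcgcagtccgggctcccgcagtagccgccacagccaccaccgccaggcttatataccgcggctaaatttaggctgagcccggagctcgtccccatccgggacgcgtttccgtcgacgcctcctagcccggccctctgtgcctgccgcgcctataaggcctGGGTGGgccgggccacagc
Klf4: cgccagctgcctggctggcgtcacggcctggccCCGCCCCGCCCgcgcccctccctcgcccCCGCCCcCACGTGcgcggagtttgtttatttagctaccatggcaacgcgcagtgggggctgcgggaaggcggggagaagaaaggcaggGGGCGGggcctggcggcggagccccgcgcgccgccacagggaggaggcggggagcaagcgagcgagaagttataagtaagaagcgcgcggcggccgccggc

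The KLF letters CCGCCC occurred 5 times in the Cebpb window, 4 times in that of Klf4, 2 times in that of Klf2 and 0 times in that of Cebpa. Of 32851 windows of the same length, 32.7% held them at least once. CCACCC, held by 28.1% of windows, occurred 1 time each in the Cebpa, Cebpb and Klf2 windows. The Bhlhe40 letters CACGTG were in the Klf4 window, at position -182 from the start, and 6.0% of all windows held them. The C/EBP letters ATTGC was in the Cebpb window, at position -57, and in 23.1% of all windows. PU.1, Zeb2 and MAF letters, held by 23.3%, 17.2% and 16.1% of windows, were in none of the 4. These windows were rich in G and C, at 66.4% for Cebpa, 81.6% for Cebpb, 71.2% for Klf2 and 74.0% for Klf4 against a median of 52.4% over all windows. The part of this base composition in the counts of matches was not tested. A match describes the letters and does not show binding.

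Of the 8 factor genes, 5 were lower and 1 was higher in macrophages than in monocytes of control tumours, and 6 were lower and 1 higher in treated tumours. Cebpb, Klf4 and Bhlhe40 had the widest gaps, at 2.9 to 4.27 times lower. Neutrophil markers were lower in the same macrophage libraries, and their part in these differences was not tested. Cebpa was the gene that went the other way, at 1.62 and 1.58 times higher in macrophages. These calls rest on edgeR's quasi-likelihood test with Benjamini-Hochberg adjustment over all 15390 genes tested, at an adjusted p under 0.05. In control tumours 44.1% of all genes were called by the same rule (24.0% higher and the rest lower), and in treated tumours 53.9% (28.2% higher, 25.7% lower). The counts of 6 and 7 of 8 are to be read against these shares. The median log2 fold change of the 8 was -0.45 in control and -0.60 in treated tumours, beside medians of -0.00 and -0.01 over all genes. The edgeR fit did not pair libraries. With neighbouring sample numbers as a block, Klf2 and Maf passed in control tumours as well (limma-voom, values below). Control and treated comparisons use separate libraries. In such bulk samples fewer cells of a type and less RNA per cell cannot be told apart.

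**Figure D1:**
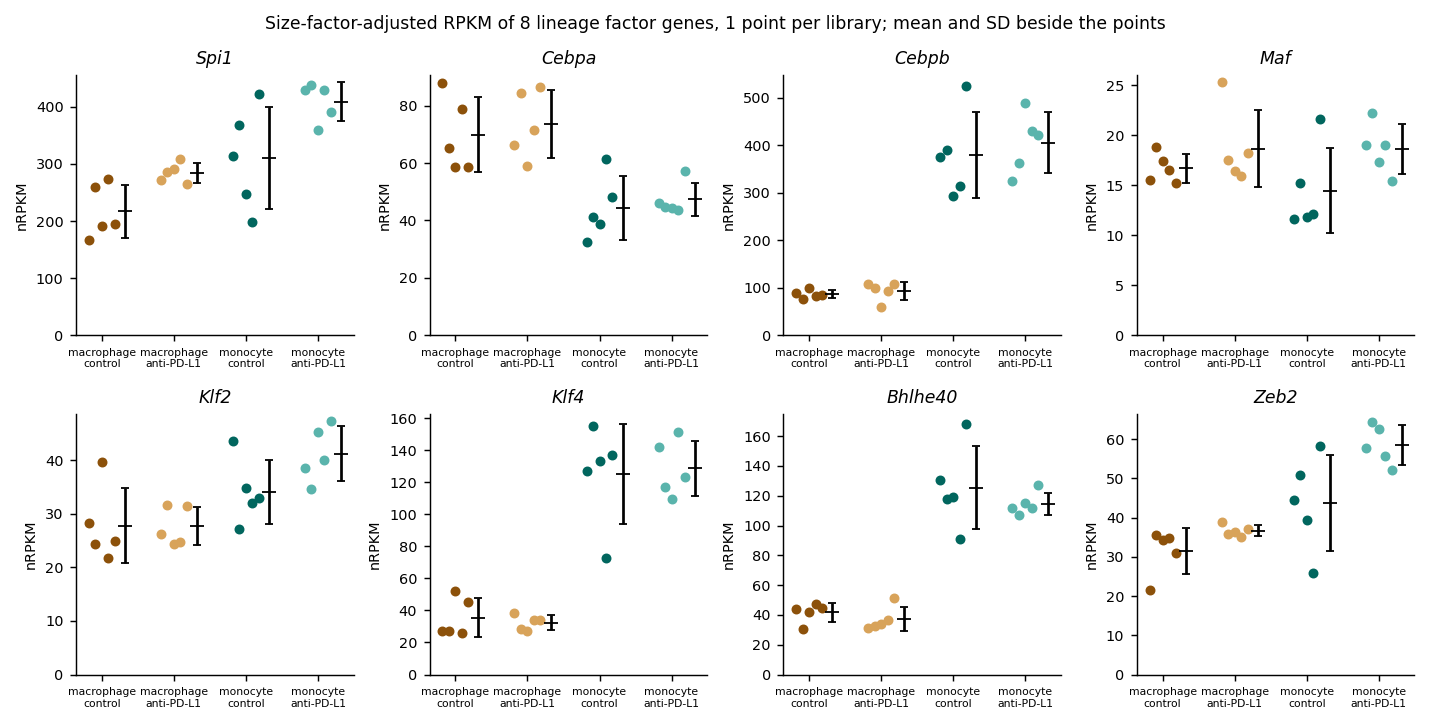
The deposited nRPKM value (an RPKM, a read count per length and depth, scaled by a library size factor) of each factor gene is plotted for each of the 20 libraries, grouped by cell type and treatment, with the mean and SD (n = 5) beside the points. For Cebpb, Klf4 and Bhlhe40 all 10 macrophage libraries lie under all 10 monocyte libraries, and Maf is the lowest gene in each group.

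Per length, the order of the genes differed between the cell types. On the nRPKM scale, Spi1 led in macrophages at 217 ± 46.6 in control and 285 ± 17.3 in treated tumours (SD, n = 5 throughout), and its library range lay apart from that of Cebpb, the next gene, at 86.5 ± 8.36 and 93.4 ± 19.6. Cebpa followed at 69.9 ± 13.1 and 73.6 ± 11.9, a range that overlapped that of Cebpb. Bhlhe40, Klf4, Zeb2 and Klf2 came next in control macrophages with means from 41.8 down to 27.8, each overlapping its neighbour. In monocytes Cebpb and Spi1 shared the top with overlapping ranges, at 380.0 ± 90.9 and 311 ± 90 in control and 406 ± 63.5 and 409 ± 33.4 in treated tumours. Bhlhe40 and Klf4 formed the next pair, both at a mean of 125 in control monocytes, apart from the genes above and below them. Cebpa and Zeb2 overlapped at 44.4 and 43.8, Klf2 followed at 34.1, and Maf was last at 14.5. Maf had the lowest mean in each group, with 14.5 to 18.7, although in treated macrophages its range overlapped that of Klf2.

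Spi1 (chr2:91082374-91115759) was lower in macrophages by a modest amount. It stood at 249, 381, 291, 402 and 291 CPM in control macrophages and at 454, 531, 363, 294 and 599.6 CPM in control monocytes, each list in the order of replicate 1 to 5, numbers that only name a library. The control groups overlapped, and monocyte replicate 4, at 294 CPM, was level with the middle of the macrophages. In treated tumours Spi1 stood at 402, 423, 428, 459 and 388 CPM in macrophages and at 632, 639, 516, 624 and 561 CPM in monocytes, with no overlap. The log2 fold change was -0.47 ± 0.16 (SE, edgeR, adjusted p = 0.0215) in control and -0.50 ± 0.16 (adjusted p = 0.0125) in treated tumours. The control call was lost when only the 2 groups compared were fitted (adjusted p = 0.0993), without macrophage replicate 1, 3 or 5 (0.0648, 0.0563 and 0.0535) and without monocyte replicate 2 or 5 (0.0663 and 0.0832). The treated call was lost without macrophage replicate 5 (-0.45, adjusted p = 0.054).

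The C/EBP pair moved in opposite directions. Cebpb (chr2:167688915-167690432) stood at 140.1, 119.8, 159.7, 129 and 135 CPM in control macrophages and at 574, 594, 455, 492 and 789 CPM in control monocytes. Treated macrophages held it at 168, 155, 92.9, 146 and 167 CPM, and treated monocytes at 508, 559.9, 743, 663 and 641 CPM. No macrophage library reached the lowest monocyte library in either treatment, and the low value of treated macrophage replicate 3 stood apart from its own group. On the log2 scale the difference was -2.09 ± 0.17 in control (edgeR, adjusted p = 1.22e-08) and -2.10 ± 0.17 in treated tumours (adjusted p = 7.60e-09), 4.25 and 4.27 times lower.

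Cebpa (chr7:35119293-35121928) stood at 243, 176, 164, 213 and 162 CPM in control macrophages and at 86.1, 109, 104, 167 and 125 CPM in control monocytes. Monocyte replicate 4, at 167 CPM, made these groups overlap. Treated macrophages held Cebpa at 180.1, 230.2, 159, 195 and 233 CPM, and treated monocytes at 125, 120.1, 118, 117 and 151 CPM, with no overlap and monocyte replicate 5 above the rest of its group. The log2 fold change was 0.70 ± 0.16 in control (edgeR, adjusted p = 0.00143) and 0.66 ± 0.16 in treated tumours (adjusted p = 0.00161). Cebpa was the only one of the 8 to be called higher in macrophages in these fits.

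Klf4 (chr4:55527137-55532475) stood at 86.2, 85.2, 169, 80.3 and 143 CPM in control macrophages and at 388, 472, 411, 228 and 411 CPM in control monocytes. The groups did not overlap, although monocyte replicate 4, at 228 CPM, lay well under its group. Treated macrophages held it at 120.3, 88.5, 85.2, 107 and 106 CPM, and treated monocytes at 445, 362, 334, 464 and 374 CPM, again apart. Its log2 fold change was -1.76 ± 0.21 (edgeR, adjusted p = 1.76e-06) in control and -1.97 ± 0.21 (adjusted p = 3.27e-07) in treated tumours.

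Its relative Klf2 (chr8:72319062-72321654) differed far less. Klf2 stood at 53.7, 45.2, 76, 40.4 and 47.3 CPM in control macrophages and at 79.6, 49.5, 64.3, 60 and 59 CPM in control monocytes, with overlap. Macrophage replicate 3, at 76 CPM, was above 4 of the 5 monocyte libraries. Treated macrophages held it at 49.1, 59.3, 45.1, 46.5 and 58.2 CPM and treated monocytes at 72, 64.2, 82.3, 73.5 and 86 CPM, with no overlap. The log2 fold change of -0.25 ± 0.15 in control did not pass (edgeR, adjusted p = 0.193), while that of -0.55 ± 0.15 in treated tumours did (adjusted p = 0.00442). Without control macrophage replicate 3 the control value was -0.44 and passed (adjusted p = 0.0099), and so did the fit that blocks on neighbouring sample numbers (-0.27, limma-voom, adjusted p = 0.0163). A pass in 1 treatment and a miss in the other is not a difference between them. The edgeR test of that difference gave -0.30 with a 95% interval of -0.74 to 0.14 (adjusted p = 0.902).

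Bhlhe40 (chr6:108660629-108666925) stood at 144, 98.4, 138, 151 and 145 CPM in control macrophages and at 409, 369, 378, 293 and 516 CPM in control monocytes. Treated macrophages held it at 101, 106, 109, 118 and 163 CPM and treated monocytes at 357, 338, 359, 354 and 396 CPM. All macrophage libraries lay under all monocyte libraries, the closest in treated tumours being 163 against 338 CPM. The fitted log2 fold change was -1.54 ± 0.15 in control (edgeR, adjusted p = 1.47e-07) and -1.60 ± 0.15 in treated tumours (adjusted p = 5.81e-08). An antisense long noncoding RNA gene, 0610040F04Rik (chr6:108577036-108660934), overlaps the start of Bhlhe40, and its mean count was 360 against 8400 for Bhlhe40. The kit marks strand, but the sources used here do not give the strand setting of the counting, so the split of reads in that overlap is uncertain.

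Zeb2 (chr2:44983512-45117442) stood at 217, 352, 348, 345 and 312 CPM in control macrophages and at 431, 491, 386, 259 and 554 CPM in control monocytes. These groups overlapped through monocyte replicate 4, and macrophage replicate 1 lay far under its own group. Treated macrophages held Zeb2 at 385, 356, 357, 349 and 366 CPM and treated monocytes at 572, 630.1, 603, 543 and 502 CPM, with no overlap. The log2 fold change was -0.43 ± 0.16 in control (edgeR, adjusted p = 0.0316) and -0.65 ± 0.16 in treated tumours (adjusted p = 0.0016). The control call was lost with no filter on low counts (0.0555), with only the 2 groups fitted (0.125), without macrophage replicate 1 or 5 (0.0843 and 0.0548) and without monocyte replicate 1, 2 or 5 (0.0544, 0.0868 and 0.121), all adjusted p. Zeb2 shares its locus with the antisense gene Zeb2os, whose mean count was 1820 against 13949 for Zeb2, and with the small gene Mir5129.

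Maf (chr8:115703253-115706894) did not pass in either treatment. It stood at 59.3, 70.2, 66.9, 61.7 and 57.7 CPM in control macrophages and at 42.6, 55.4, 43.8, 45.5 and 77.7 CPM in control monocytes. Of these monocyte libraries 4 lay under all macrophages, and replicate 5 lay above them all. Treated macrophages held it at 95.1, 65.6, 60.9, 60.1 and 67.5 CPM and treated monocytes at 71, 82.3, 62.9, 70.1 and 56 CPM, where the groups ran through each other. In log2 terms the difference was 0.25 with a 95% interval of -0.07 to 0.58 in control (edgeR, adjusted p = 0.206) and 0.03 with an interval of -0.30 to 0.35 in treated tumours (adjusted p = 0.891). The control value passed without monocyte replicate 5 (0.44, edgeR, adjusted p = 0.0133) and with the block on neighbouring numbers (0.29, limma-voom, adjusted p = 0.0459), and was -0.02 without the 6 control libraries that held most fibroblast RNA.

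**Figure D2:**
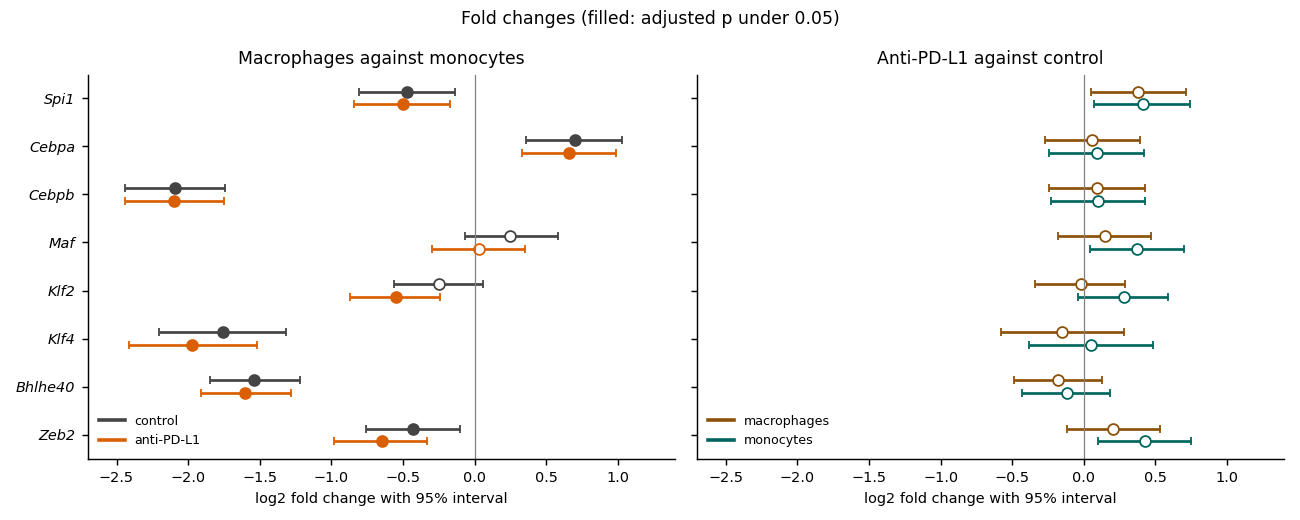
Log2 fold changes of the factor genes with 95% intervals are drawn for macrophages against monocytes (left, by treatment) and for anti-PD-L1 against control (right, by cell type), with filled points where the adjusted p is under 0.05. Cebpb, Klf4 and Bhlhe40 lie between -2.10 and -1.54 on the left, Cebpa lies at 0.70 and 0.66, and no point on the right is filled.

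Sample numbers run so that 1 macrophage and 1 monocyte library of the same treatment are neighbours. Within such neighbours the cell type differences mostly kept their direction, while their size varied. All 5 control pairs and all 5 treated pairs had the same direction for each factor but Maf. The share of all genes with such uniform pairs was not counted. For Spi1 the log2 difference within pairs ran from -0.64 to -0.24 in control and from -0.63 to -0.28 in treated tumours. Zeb2 ran from -0.68 to -0.26 and from -0.85 to -0.46, and Klf2 from -0.54 to -0.07 and from -0.68 to -0.46. Cebpb ran from -2.61 to -1.75 and from -2.45 to -1.94, and Klf4 from -2.47 to -1.20 and from -2.39 to -1.76. Bhlhe40 ran from -1.91 to -1.02 and from -1.81 to -1.28, and Cebpa from 0.54 to 0.93 and from 0.34 to 0.97. Macrophages were higher in Maf in 4 of 5 control pairs and in 3 of 5 treated pairs. With the pair as a block, 8 of 8 factors passed in control and 7 of 8 in treated tumours (limma-voom). The share of all genes called in that fit is not given here. Over the 28 alternative fits, genes called ran from 5044 to 9261 in control and from 7721 to 10201 in treated tumours. The counts of factors are therefore not read as a result particular to them. Over whole groups, 3 of the 8 factors (Cebpb, Klf4 and Bhlhe40) did not overlap in CPM in control tumours, beside 25.1% of all genes (14.3% higher, 10.8% lower). In treated tumours 7, all but Maf, did not overlap, beside 47.0% of all genes (25.0% higher, 22.0% lower).

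A ratio taken within a library shows the balance of a related pair without regard to library size. On the nRPKM scale, which corrects for gene length, the log2 ratio of Cebpa to Cebpb averaged -0.32 ± 0.32 in control and -0.33 ± 0.24 in treated macrophages, so the genes stood close to parity there. In monocytes it averaged -3.10 ± 0.48 and -3.09 ± 0.28. The lowest macrophage library, at -0.76, was far above the highest monocyte library, at -2.36. The log2 ratio of Klf2 to Klf4 averaged -0.32 ± 0.34 and -0.22 ± 0.29 in control and treated macrophages, and -1.84 ± 0.51 and -1.64 ± 0.29 in monocytes. Here too the libraries lay apart, the lowest macrophage library being at -0.85 and the highest monocyte library at -1.18.

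Tested on CPM, the C/EBP ratio was higher in macrophages by 2.78 in control and 2.77 in treated tumours on the log2 scale, 6.87 and 6.8 times. The KLF ratio was higher by 1.52 and 1.42, or 2.87 and 2.67 times. Each of these 4 differences gave p = 0.00794 in a two-sided exact permutation test, the smallest that 252 splits of 5 against 5 libraries allow, and 0.0159 after Benjamini-Hochberg adjustment over 8 such tests. These ratios are built from the levels given above, where Cebpb and Klf4 alone already did not overlap between the cell types. The 4 tests are thus no separate support. Their splits left neighbouring sample numbers unpaired, and other gene pairs were not counted beside them. Treatment moved the C/EBP ratio by -0.01 in macrophages and 0.01 in monocytes, and the KLF ratio by 0.10 and 0.20, none of which passed (exact permutation, adjusted p from 0.737 to 0.992).

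**Figure D3:**
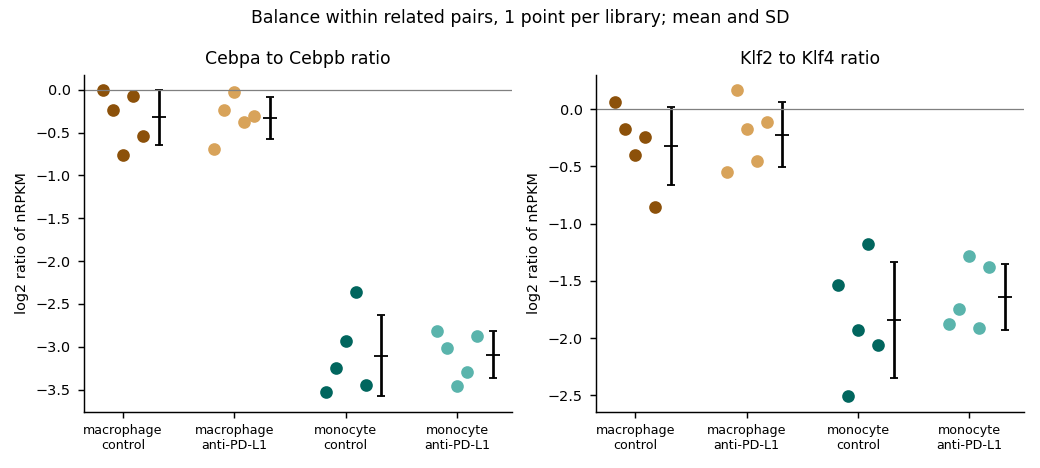
The log2 ratio of nRPKM within each library is plotted for Cebpa to Cebpb (left) and Klf2 to Klf4 (right), with the mean and SD of each group of 5. Macrophage libraries lie near 0 in both panels (group means from -0.33 to -0.22), monocyte libraries at -3.10 and -3.09 on the left and at -1.84 and -1.64 on the right, and the treatments overlap within each cell type.

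Anti-PD-L1 treatment was followed by no called change of the 8 factors in either cell type. In macrophages 0 of 8 passed in edgeR and also in DESeq2, limma-voom and the blocked fit, beside 4.65% of all genes, and 1 member (Spi1) had an unadjusted p under 0.05, beside 23.5% of all genes. In monocytes 0 of 8 passed in edgeR and limma-voom, 1 in DESeq2 and 2 in the blocked fit, beside 25.3% of all genes in edgeR (9.92% higher, 15.4% lower). There 3 members (Spi1, Maf and Zeb2) had an unadjusted p under 0.05, beside 38.4% of all genes. The groups overlapped in CPM for each of the 8 in both cell types, beside 6.94% of all genes without overlap in macrophages (4.11% higher, 2.83% lower) and 7.23% in monocytes (5.09% higher, 2.13% lower). Median log2 fold changes of the 8 were 0.08 in macrophages and 0.19 in monocytes, beside -0.01 and 0.02 over all genes.

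The largest treatment estimates were those of Zeb2 in monocytes, Spi1 in both cell types and Maf in monocytes, all positive. For Zeb2 the log2 fold change in monocytes was 0.43 with a 95% interval of 0.10 to 0.75 (edgeR, adjusted p = 0.0521), and in macrophages 0.20 with an interval of -0.12 to 0.53 (adjusted p = 0.469). Zeb2 passed in monocytes in DESeq2 (0.42, adjusted p = 0.0437), with neighbouring numbers as a block (0.46, limma-voom, adjusted p = 0.0338), without control macrophage replicate 1 (0.0415) and without control monocyte replicate 2 or 5 (0.0386 and 0.0158). For Spi1 the log2 fold change in monocytes was 0.41 with an interval of 0.07 to 0.74 (edgeR, adjusted p = 0.0678), and in macrophages 0.38 with an interval of 0.05 to 0.71 (adjusted p = 0.152). It passed in monocytes with the block (0.44, limma-voom, adjusted p = 0.0363) and without control monocyte replicate 2 or 5 (0.0444 and 0.0158). Maf in monocytes was at 0.37 with an interval of 0.04 to 0.70 (edgeR, adjusted p = 0.0878), and at 0.52 without control monocyte replicate 5 (adjusted p = 0.0056). In macrophages Maf was at 0.15 with an interval of -0.18 to 0.47 (adjusted p = 0.62).

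The estimates of the other 5 factors follow. Klf2 in monocytes was at 0.28 with an interval of -0.04 to 0.59, and in macrophages at -0.02 with an interval of -0.34 to 0.29. Cebpa was at 0.06 and 0.09 in macrophages and monocytes and Cebpb at 0.09 and 0.10, with intervals that reached from -0.27 to 0.43 over both genes and cell types. Klf4 was at -0.15 and 0.05, with intervals of -0.58 to 0.28 and -0.38 to 0.48. Bhlhe40 was at -0.18 and -0.12, with intervals of -0.49 to 0.13 and -0.43 to 0.18. Over the 8 genes the intervals reach up to 0.75 (Zeb2 in monocytes) and down to -0.58 (Klf4 in macrophages), so a missed threshold does not show that the factors did not respond.

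Fibroblast RNA moved with treatment in the same libraries. The mean log2 CPM of 20 fibroblast markers had a median of 4.39 (1.61 to 5.08) in control macrophages against 1.42 (1.17 to 3.02) in treated ones, and of 4.93 (3.05 to 5.70) in control monocytes against 2.31 (1.54 to 3.50) in treated ones. Of the 20 markers 11 were lower after treatment in macrophages and 13 in monocytes (edgeR), beside 2.92% and 15.4% of all genes called lower. The 11 in macrophages passed narrowly, at adjusted p from 0.0356 to 0.0475 (edgeR). In control macrophages at marker levels of 1.61, 3.07, 4.39, 4.77 and 5.08, Spi1 stood at 402, 381, 291, 249 and 291 CPM, Zeb2 at 345, 352, 348, 217 and 312 CPM and Klf4 at 80.3, 85.2, 169, 86.2 and 143 CPM. In control monocytes at levels of 3.05, 4.25, 4.93, 5.08 and 5.70, Spi1 stood at 599.6, 531, 454, 294 and 363 CPM, Zeb2 at 554, 491, 431, 259 and 386 CPM and Klf4 at 411, 472, 388, 228 and 411 CPM. Spi1 was thus highest in the pair of libraries of each cell type with the lowest marker levels, and so was Zeb2 in monocytes. Klf4 had no such order: in macrophages it was highest at levels of 4.39 and 5.08, and in monocytes it was as high at the highest level as at the lowest. Among the other members, Cebpb and Maf were highest in the low-marker pair of monocytes but not of macrophages. Cebpa, Klf2 and Bhlhe40 were not highest there in either cell type. The part of fibroblast RNA in these levels was not tested.

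With the marker level as a covariate, the treatment estimate of Spi1 was 0.03 in macrophages and 0.05 in monocytes, that of Zeb2 -0.02 and 0.21, and that of Maf -0.10 and 0.14. Without the 6 control libraries that held most fibroblast RNA, which leaves 2 controls per cell type, Spi1 was at 0.10 and 0.05, Zeb2 at 0.06 and 0.11, and Maf at 0.08 and 0.02. Klf2 went the other way, at 0.26 and 0.55 with the covariate and at 0.27 and 0.46 without the 6 libraries, against -0.02 and 0.28 at first. None of these values passed. The cell type calls were as many under both settings, 6 of 8 in control and 7 of 8 in treated tumours. The shares of all genes called under these settings are not given here. Over the 28 alternative fits, genes called ran from 5044 to 9261 in control and from 7721 to 10201 in treated tumours. Equal counts thus do not show that the factors were unaffected.

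**Figure D4:**
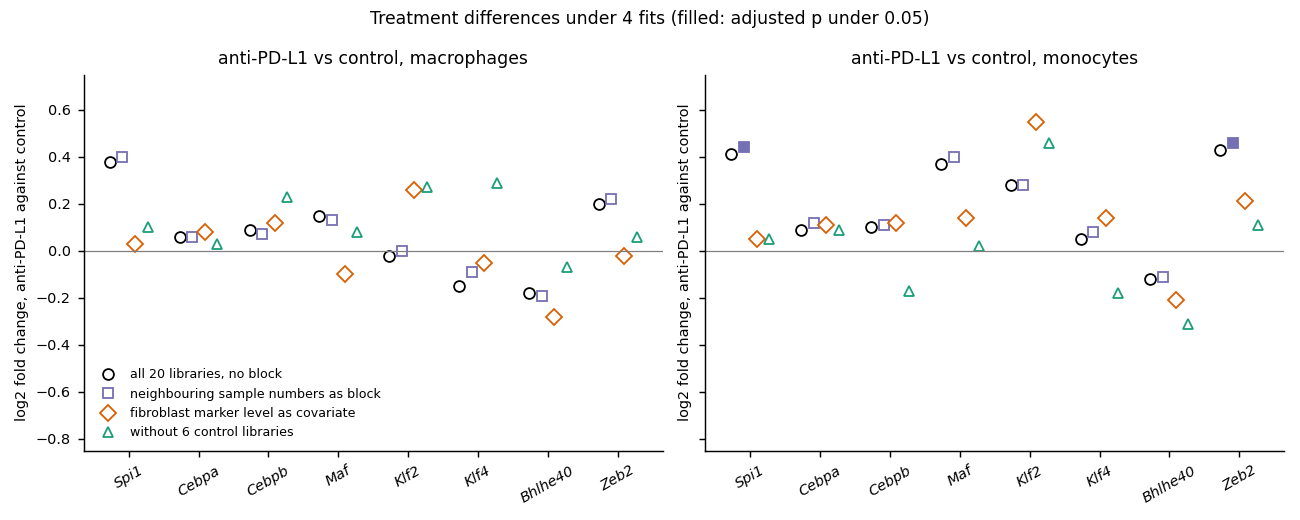
The log2 fold change after anti-PD-L1 is plotted for each factor in macrophages (left) and monocytes (right) under 4 fits, with filled points at an adjusted p under 0.05. Spi1 and Zeb2 in monocytes are filled only with the block on neighbouring sample numbers (0.44 and 0.46), and lie at 0.05 and 0.21 when the fibroblast level is a covariate.

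The treatment effects were not shown to differ between the cell types for any of the 8. The difference of the effects, macrophages minus monocytes, ran from -0.30 for Klf2 to -0.01 for Cebpb, with unadjusted p from 0.174 to 0.974 (edgeR), and 0 members had an unadjusted p under 0.05, as in DESeq2 and limma-voom, against 1 with the block on neighbouring sample numbers. Over all genes 0 were called by edgeR, with 980 at an unadjusted p under 0.05, 7 by DESeq2 and 8 in the blocked fit, and 0 members were among the calls of any of these fits.

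The wider families of the 8 were counted in the same comparisons. Of 24 relatives tested, 14 were lower and 2 higher in macrophages than in monocytes of control tumours, and 18 were lower and 2 higher in treated tumours (edgeR). Over all genes 44.1% and 53.9% were called in either direction in these comparisons, the shares against which the counts of each list are to be read. Their median log2 fold changes were -0.54 and -0.62. Klf13, a KLF family repressor, was lower by the log2 fold changes -1.16 ± 0.11 (SE) in control and -1.27 ± 0.11 in treated tumours, and Klf3, another repressor, by -0.98 ± 0.11 and -1.16 ± 0.11. The small MAF genes, whose proteins lack an activation domain, were lower too, with Maff at -1.49 ± 0.16 and -1.77 ± 0.16 and Mafk at -1.71 ± 0.17 in treated tumours. Cebpe, a driver of granulocyte maturation, averaged 0.818 ± 0.238 CPM in control macrophages against 6.27 ± 2.84 CPM in control monocytes, in the direction of the neutrophil markers, whose part in this was not tested. Bhlhe41, the close paralog of Bhlhe40, was named after its values were seen, since it went the other way: it averaged 26.6 ± 10.5 against 3.43 ± 1.25 CPM in control tumours, a log2 fold change of 2.95 ± 0.35 (edgeR, adjusted p = 1.39e-06), and 23.5 ± 9.64 against 1.96 ± 0.812 CPM in treated tumours. The other relative called higher in macrophages was Cebpg, at 0.35 ± 0.10 and 0.24 ± 0.10, also outside the rule for naming.

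Of 30 other myeloid factors, 16 were lower and 5 higher in control macrophages, and 19 were lower and 4 higher in treated ones, with medians of -0.59 and -0.70. Nr4a1, an orphan nuclear receptor required for nonclassical monocytes, averaged 609 ± 171 CPM in control macrophages and 2525 ± 706 CPM in control monocytes, a log2 fold change of -2.05 ± 0.21. Nfil3, a basic leucine zipper factor, was at -1.61 ± 0.18 and -1.82 ± 0.18 in control and treated tumours, and Id3, an inhibitor of helix-loop-helix factors, at -1.37 ± 0.18 and -2.18 ± 0.19. Batf3, an AP-1 family factor known for its role in cross-presenting dendritic cells, was higher in macrophages at 14.4 ± 3.29 against 5.87 ± 0.357 CPM in control tumours. It is 1 of 8 dendritic cell markers, of which 3 were higher and 3 lower in control macrophages, and 3 higher and 5 lower in treated ones. The other higher markers in control tumours were Xcr1 (18.1 against 4.42 CPM) and Clec9a (10.4 against 3.91 CPM), named outside the rule. The part of dendritic cell RNA in the Batf3 difference was not tested. Mef2c, Pparg and Cbfb were also called higher in both treatments and Id2 in control tumours, all named because they make up the rest of these small counts.

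**Figure D5:**
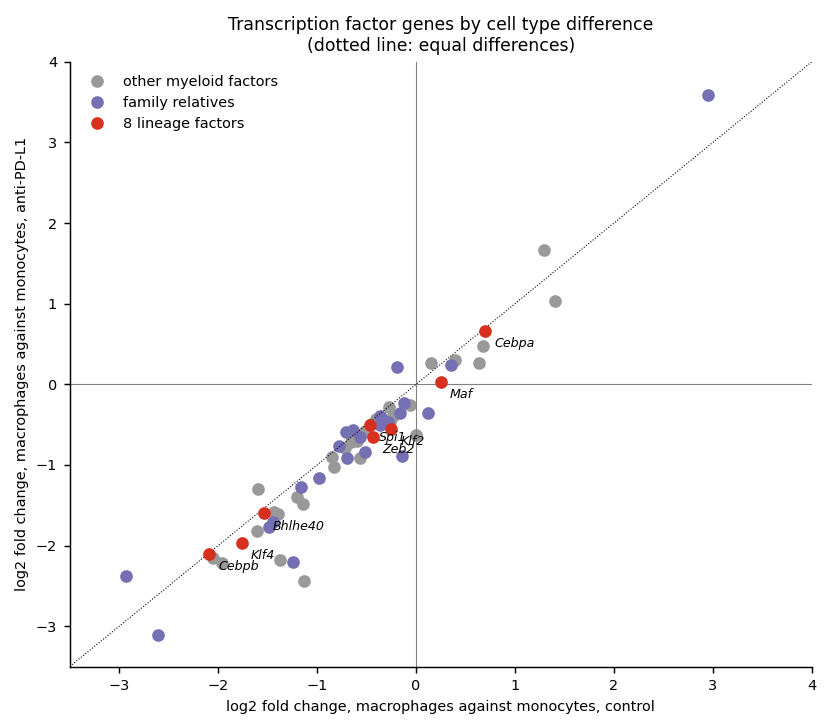
Each point is a transcription factor gene, placed by its log2 fold change between macrophages and monocytes in control (horizontal) and anti-PD-L1 tumours (vertical), which use separate libraries, and the dotted line marks equal values. The 8 lineage factors run from Cebpb at -2.09 and -2.10 to Cebpa at 0.70 and 0.66, and Bhlhe41 lies at 2.95 and 3.59.

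Genes known to be bound by these factors were counted in the same way, beside the same 44.1% and 53.9% of all genes called in control and treated tumours. Of 10 C/EBP targets, 7 were lower and 1 higher in control macrophages and 8 were lower and 1 higher in treated ones, with medians of -1.09 and -1.08. Il6, an inflammatory cytokine, averaged 1.8 ± 0.668 against 23.2 ± 9.41 CPM in control tumours, and Il1b, a pyrogenic cytokine, 1795 ± 327 against 5751 ± 1465 CPM. Ptgs2, the inducible cyclooxygenase, was lower by the log2 fold changes -1.35 ± 0.22 and -1.71 ± 0.22 in control and treated tumours. All 5 MAF family targets were higher in macrophages in both treatments. For the 4 genes other than Cd5l the log2 fold changes ran from 1.49 to 2.85 in control and from 1.25 to 3.09 in treated tumours. Maf itself did not pass. C1qa, C1qb and C1qc, the chains of complement C1q, were higher by 2.85 ± 0.18, 2.39 ± 0.18 and 2.79 ± 0.17 in control tumours, and they are macrophage markers as well. Il10, an anti-inflammatory cytokine on both the C/EBP and the MAF list, averaged 13.3 against 4.75 CPM in control tumours, and Cd5l was near the limit of detection, at 0.34 against 0.0942 CPM.

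Of 7 KLF targets, 4 were lower and 2 higher in control macrophages and 4 were lower and 3 higher in treated ones. Thbd, the gene of thrombomodulin, was at a log2 fold change of -1.88 ± 0.21 in control tumours. Cd14, a coreceptor for lipopolysaccharide, was at -0.94 ± 0.16, and Mrc1, the mannose receptor, went up, at 232 ± 80.9 against 21.3 ± 9.09 CPM. Of 12 PU.1 targets, 5 were lower and 1 higher in control macrophages and 6 were lower and 1 higher in treated ones, with medians of -0.30 and -0.33. These 6 and 7 of 12 are close to the shares over all genes. Csf1r, the receptor that macrophages depend on for survival, was named after its values were seen and was at -0.00 with a 95% interval of -0.26 to 0.25 in control tumours.

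Spi1 did not pass the test between treatments in either cell type, and its targets were counted beside it. In monocytes 10 of 12 were higher and 0 lower (edgeR), beside 9.92% of all genes called higher, with a median of 0.43, and in macrophages 4 were higher (Itgb2, Csf3r, Tlr4 and Ncf1), beside 1.73%, with a median of 0.33. Cybb, the catalytic subunit of the phagocyte oxidase, averaged 919.8 ± 162 CPM in control and 1436 ± 126 CPM in treated monocytes, and Tlr4, the lipopolysaccharide receptor, 42.1 ± 2.93 and 63.9 ± 9.64 CPM. Csf3r, the receptor of granulocyte colony stimulating factor, averaged 129.6 ± 21.4 and 212 ± 33.7 CPM, and Fcgr1, a high-affinity Fc receptor, was at a log2 fold change of 0.51 ± 0.15. The count in monocytes fell to 3 with only the groups compared in the fit, to 0 with the fibroblast level entered as a covariate, and to 0 higher and 1 lower without the 6 control libraries highest in those markers. It ran from 3 to 11 over the fits that each left out 1 library. The macrophage count was 0 with the covariate and 0 without the 6 libraries, and ran from 0 to 6 when 1 library was left out.

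Among the relatives, 7 were higher and 1 lower in treated monocytes, and among the other factors 6 were higher and 1 lower. Over all genes 25.3% were called there, 9.92% higher and 15.4% lower. In either direction, 8 of 24 and 7 of 30 were not far from 25.3%. By direction, both lists leaned higher, while the calls over all genes leaned lower. In macrophages 1 relative (Cebpd, a C/EBP family gene, 24.6 ± 2.37 to 31.4 ± 2.78 CPM) was higher, 1 other factor was higher (Nr1h3) and 1 was lower (Gata2, a progenitor and mast cell factor, at 0.361 against 2.27 CPM). Over all genes 1.73% were called higher and 2.92% lower in macrophages, the shares against which these counts are to be read. Klf6, an early response gene of the KLF family, averaged 364 ± 36 CPM in control and 551 ± 56.8 CPM in treated monocytes, and Etv6, an ETS family repressor, 275 ± 65.9 and 391 ± 41.9 CPM. Zeb1, the relative of Zeb2 that is known from mesenchymal cells, was lower in treated monocytes, at 7.28 ± 2.09 against 19.2 ± 9.14 CPM, in the direction of the fibroblast markers. Nr1h3, the gene of the sterol receptor LXRα, was higher in both cell types, from 18.9 ± 3.67 to 34.2 ± 6.08 CPM in macrophages and from 22.8 ± 6.78 to 41.6 ± 4.88 CPM in monocytes, and Irf8, a factor of the monocyte and dendritic lineages, rose from 410.0 ± 97.8 to 654 ± 89.1 CPM in monocytes. With the fibroblast level as a covariate 0 of these relatives and factors passed in either cell type, and without the 6 control libraries 1 relative did, in monocytes. Leaving out 1 library moved the counts called to between 4 and 10 relatives and 3 and 10 other factors in monocytes, and to between 0 and 3 and between 0 and 5 in macrophages. Of the 10 C/EBP targets, 2 were higher in treated monocytes, Csf3r and Nos2, the inducible nitric oxide synthase (189 ± 74.8 to 609 ± 336 CPM), beside 9.92% of all genes. In treated macrophages 1 was higher, Csf3r, beside 1.73% of all genes. Csf3r is also on the PU.1 list and the neutrophil list, so the same gene is counted in each. Of the 5 MAF targets 0 were higher in either cell type. In monocytes 1 was lower, Cd5l, at under 1 CPM in both groups, beside 15.4% of all genes called lower.

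The genes closest to each factor in pattern were found by the root mean square difference of standardised log2 CPM over the 20 libraries, among 10132 genes. The median over all genes lay between 1.36 and 1.47 for the 8 factors, and since the libraries fall into 2 cell types these values are descriptions. Cebpb was most like Jund (0.17), Gm9733 (0.18) and Thbs1 (0.19), the latter averaging 544 CPM in control macrophages and 4541 CPM in control monocytes. Klf4 was most like 6530402F18Rik (0.16), Fosl2 (0.19) and Bcr (0.21). Bhlhe40 was most like 0610040F04Rik (0.16), the gene that overlaps it, then Lif (0.21) and Rarg (0.21). For Spi1 the closest were Fes (0.20), Atf6b (0.22) and Grk2 (0.25), and for Zeb2 they were Ddx5 (0.21), Kat2b (0.22) and Crybg1 (0.22). Cebpa had 1110032A03Rik (0.32), Gnpda2 (0.33) and Rcbtb2 (0.35).

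For Klf2 and Maf the closest genes were further away. Klf2 came nearest to the heat shock genes Hspa1a (0.56) and Dnajb1 (0.58) and to Daam1 (0.64). Hspa1a has a near-identical copy, so its count is uncertain under unique alignment. It averaged 38.6 and 33.9 CPM in control and treated macrophages and 51.4 and 57.2 CPM in monocytes. Maf came nearest to Mdfic (0.56), Nectin4 (0.62) and Selenot (0.62).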

How the data were processed

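Per the labels' protocols, stranded total RNA libraries were made, although the molecule label says polyA RNA. Reads were aligned with GSNAP to GRCm38, per the submitters' processing notes. The authors deposited, for each library, a count of uniquely aligned reads per gene and an nRPKM value (an RPKM scaled by a library size factor), per the file headers. The sources used here do not give the counting tool, its strand setting or the annotation. Of 36528 gene models, 31049 (85.0%) had a symbol, and these held 97.97% of the counts.

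Counts were tested with edgeR 4.0.16 (R 4.3.3; filterByExpr, TMM, quasi-likelihood, 1 fit over the 20 libraries), with 15390 genes tested, Benjamini-Hochberg adjustment and a threshold of 0.05. Fold changes are fitted log2 values, and log2 CPM used a prior count of 2. The nRPKM values served for levels and ratios between genes. In the shallowest library 1 read was worth 0.0331 CPM. The 95% intervals on log2 fold changes come from the edgeR fit and include the variation between libraries. No 2 libraries agreed within counting noise (lowest chi-square per degree of freedom 20.45). Within-library ratios were tested by exact permutation. Promoter windows of 250 bases came from RefSeq. Beyond the 8 factors, the text names up to 4 called genes of each list with the smallest p, and for likeness the 3 nearest genes.

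The labels do not say that neighbouring sample numbers share a tumour. Over 10 such pairs, deviations from the group means correlated at 0.218 to 0.722, all over 0.1, and 9 macrophage libraries were best matched by their neighbour. The numbers were therefore taken to pair the samples, and a block on them was fitted with limma-voom (limma 3.58.1, block correlation 0.53). This fit served as an alternative. The main calls, SEs and intervals come from the edgeR fit without a block and so leave the pairing out. Other alternatives were DESeq2 1.42.0, its size factors, no filter, voom without the block, only the groups compared, a fibroblast marker covariate, and leaving out libraries. The same alternatives for the gene lists were added after the counts had been seen.

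On data simulated for 15390 genes, 67, 69 and 64 genes were changed by 1.5, 2 and 4 fold in the control cell type comparison. Of these edgeR recovered 32.8%, 71% and 85.9%, calling 6 unchanged genes. For treatment in monocytes it recovered 35.5%, 62.5% and 84.5% of 62, 80 and 58 genes, calling 5. In the real data 44.1% and 25.3% of genes were called, so the adjusted threshold was stricter in the simulation. Its changed genes came from all expression levels and its libraries were unpaired. The rates are therefore not the power for the 8 factors here. The 8 factors and the lists were chosen with earlier results of these data known. Results for some genes of these lists are not reported here.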

Additional observations from a re-analysis of the deposited data

Results flagged for a closer look

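In 6 of 40 groups of 5 libraries examined, 1 library stood apart from the others by Dixon's criterion, which chance meets in about 1 group in 20. All values are log2 CPM. Cebpa in treated monocytes had replicate 5 at 7.24, with the next library at 6.97 and the lowest at 6.87. Cebpb in treated macrophages had replicate 3 at 6.54, with the next at 7.19 and the highest at 7.39. Maf in treated macrophages had replicate 1 at 6.57, with the next at 6.08 and the lowest at 5.91. Klf4 in control monocytes had replicate 4 at 7.83, with the next at 8.60 and the highest at 8.88. Bhlhe40 in control macrophages had replicate 2 at 6.62, with the next at 7.10 and the highest at 7.24. Zeb2 in control macrophages had replicate 1 at 7.76, with the next at 8.29 and the highest at 8.46.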

How the results depend on the processing

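Under 28 alternatives each, 4 to 8 of the 8 factors passed in control and 6 to 7 in treated tumours, and 5044 to 9261 and 7721 to 10201 genes in all. In control tumours the calls of Spi1 and Zeb2 were lost in 6 and 7 of the 28, and Maf ran from -0.02 to 0.44. The cause of these and the following changes was not tested. Genes called after treatment in macrophages numbered 715 (266 higher, 449 lower) in edgeR, 1878 in DESeq2, 191 in limma-voom (148 higher, 43 lower), 243 with the block on neighbouring sample numbers (195 higher, 48 lower), 1193 with only the groups compared, 2 with the fibroblast covariate, 70 without the 6 control libraries (64 higher, 6 lower), and 14 to 1928 leaving out 1 library. In monocytes 3900 genes (1526 higher, 2374 lower) became 2019, 5 and 83 under the last 3 settings and 1883 to 5359 leaving out 1 library, and 3296 with the block (1602 higher, 1694 lower). Factors called in monocytes numbered 1 in DESeq2, 2 with the block and 0 to 3 leaving out 1 library. Genes with a difference of treatment effects numbered 7 in DESeq2, 8 with the block and 0 to 41 leaving out 1 library.

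Values that changed sign had not passed at first and did not pass afterwards. Without the 6 control libraries these were the difference of treatment effects for Spi1 (0.05), Cebpb (0.39), Maf (0.06), Klf4 (0.47) and Bhlhe40 (0.25), treatment in monocytes for Cebpb (-0.17) and Klf4 (-0.18), treatment in macrophages for Klf2 (0.27), Klf4 (0.29) and the Klf2 to Klf4 ratio (-0.02), and the control cell type value of Maf (-0.02). With the covariate they were treatment in macrophages for Klf2 (0.26), Maf (-0.10) and Zeb2 (-0.02) and the treated cell type value of Maf (-0.06). Cebpb's difference of effects was 0.01 with DESeq2 size factors and in DESeq2, and Klf2 after treatment in macrophages was 0.00185 in limma-voom and 0.000953 with the block.

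Leaving out 1 library, the difference of effects ran from -0.13 to 0.15 for Spi1, -0.13 to 0.10 for Cebpa, -0.12 to 0.17 for Cebpb, -0.29 to 0.04 for Klf4 and -0.15 to 0.10 for Bhlhe40. Treatment in macrophages ran from -0.04 to 0.19 for Klf2 and -0.19 to 0.08 for Klf4, and in monocytes from -0.11 to 0.14 for Klf4. The treated cell type value of Maf ran from -0.08 to 0.13. Treatment moved the Cebpa to Cebpb ratio by -0.12 to 0.08 in macrophages and -0.10 to 0.20 in monocytes, and the Klf2 to Klf4 ratio in macrophages by -0.04 to 0.19.

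With the block, the ratio differences between cell types were 2.78 and 2.77 (C/EBP) and 1.52 and 1.42 (KLF), but 5 pairs cannot give an exact p under 0.0625. Leaving out the same control libraries, the control values were 3.19 and 2.08, in too few libraries to pass. Beyond the calls named here and in the report (Spi1, Maf, Klf2 and Zeb2) the block changed no call of the 8.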
